A study of Rattus norvegicus with 28 samples.

Results

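Reg3b and Reg3g are 2 genes of the regenerating islet-derived (Reg) family, followed here in vessel-lining cells of transplanted rat hearts. They were chosen because their signals on arrays of allograft endothelial cells lay far above those of graft leukocytes, so that contrast is described here without a test. Both are listed with 1 probe set each (Entrez genes 24618 and 24620), and both were measured, 2 of the 14217 genes and of the 31042 probe sets that are not controls.

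All rats were male. DA (Dark Agouti) hearts grafted into Lewis rats were the allografts, and Lewis hearts grafted into Lewis rats were the isografts, each taken 2, 3 or 4 days after the heart had been joined to vessels of the neck. Ungrafted hearts of DA and Lewis rats were the controls. From each heart suspension cells with the leukocyte protein CD45 were removed and cells with the endothelial protein CD31 were then collected, which gave 24 arrays in 8 groups of 3. The other 4 arrays held leukocytes of allografts (day 3 has 2 arrays, days 2 and 4 have 1 each), labelled with the Lewis strain of the recipient. The labels call the arrays of a group replicates, and the sources do not say whether each stands for 1 animal. The p-values therefore measure the spread between these arrays.

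Reg3b and Reg3g encode small secreted C-type lectins. They are best known from the gut and the pancreas, where inflammation raises them and where Reg3g binds the cell wall of Gram-positive bacteria. Cytokines of the interleukin-6 family and interleukin-22 switch Reg3 genes on through the transcription factor Stat3. In injured mouse heart, Reg3b has been described as a signal from heart muscle cells, induced by oncostatin M, that draws in macrophages.

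On rat chromosome 4 the order of the family's genes in RefSeq (GRCr8) is Reg3b, the pseudogene Reg3b-ps1, Reg3a, Reg1a and Reg3g. The 250 bases before the annotated start of both genes are shown because the levels of the pair moved together across arrays. They are RefSeq reference sequence, not sequence of the DA or Lewis strains, and are written 5′ to 3′ along each gene. Capitals mark matches to the Stat motif TTCNNNGAA and to the TATA box TATAAAA.

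Reg3b, chr4:112419526-112419775, plus strand: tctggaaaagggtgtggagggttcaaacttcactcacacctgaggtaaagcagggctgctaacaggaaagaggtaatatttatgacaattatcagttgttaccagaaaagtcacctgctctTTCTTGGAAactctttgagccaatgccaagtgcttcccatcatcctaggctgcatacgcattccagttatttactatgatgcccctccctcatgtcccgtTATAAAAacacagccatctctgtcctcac

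Reg3g, chr4:112484739-112484988, minus strand: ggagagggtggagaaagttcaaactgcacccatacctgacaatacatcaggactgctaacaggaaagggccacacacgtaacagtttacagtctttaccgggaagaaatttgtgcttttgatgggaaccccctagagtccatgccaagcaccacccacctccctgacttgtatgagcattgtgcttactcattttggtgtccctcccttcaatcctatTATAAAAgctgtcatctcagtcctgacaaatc

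Both windows held TATAAAA close to the start, from 29 to 23 bases before it in Reg3b and from 32 to 26 in Reg3g. Reg3b held TTCNNNGAA once, as TTCTTGGAA from 129 to 121 bases before the start, and the Reg3g window held no match to it. On both strands TTCNNNGAA was found in 7.67% and TATAAAA in 5.38% of 33469 RefSeq promoter windows of this length. The motif CTGGGAA, an element of interleukin-6-driven acute phase genes that can overlap TTCNNNGAA, was absent from both windows and present in 9.56% of all. The 2 windows shared 165 identical bases in 260 aligned columns (63.5%), and their identities with the windows of Reg3a and Reg1a ranged from 48.5% to 53.7%. The Reg1a window held TTCNNNGAA from 242 to 234 bases before the start, TATAAAA from 29 to 23, and also CTGGGAA. The Reg3a window held CTGGGAA and neither of the others. These matches describe letters and do not show binding.

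The deposited values are log2 signals, so a difference of 1 is a factor of 2 and signals of different probe sets cannot be compared as amounts of RNA. Endothelial and pan-leukocyte genes followed the labels, but neither kind of preparation was shown to be pure. The 13 measured endothelial genes, among them Pecam1, which encodes CD31, averaged 11.66 to 12.28 log2 over the endothelial arrays and 8.44 to 10.51 over the leukocyte arrays. Both day 3 leukocyte arrays carried the most endothelial signal (9.74 and 10.51). The 12 pan-leukocyte genes averaged 6.76 to 9.06 over the endothelial arrays and 11.88 to 12.04 over the leukocyte arrays. On single endothelial arrays macrophage genes averaged up to 10.04 and fibroblast genes up to 11.12.

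Both genes gave a moderate signal in ungrafted hearts and a high one in every graft group. Reg3b had log2 signals of 9.83, 7.88 and 9.40 in normal DA hearts and of 8.59, 9.10 and 9.30 in normal Lewis hearts. Reg3g had 9.21, 7.19 and 8.98 in normal DA hearts and 7.65, 8.85 and 8.77 in normal Lewis hearts. The same DA array, replicate 2, was the lowest of the 6 for both genes. Before grafting the strains differed by 0.04 log2 for Reg3b (95% interval -1.04 to 1.12) and by 0.03 for Reg3g (-1.30 to 1.37), DA minus Lewis. Neither passed by limma (adjusted p = 0.987 and 0.991, unadjusted 0.937 and 0.959), where 1.16% of all probe sets were called in either direction.

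**Figure D1:**
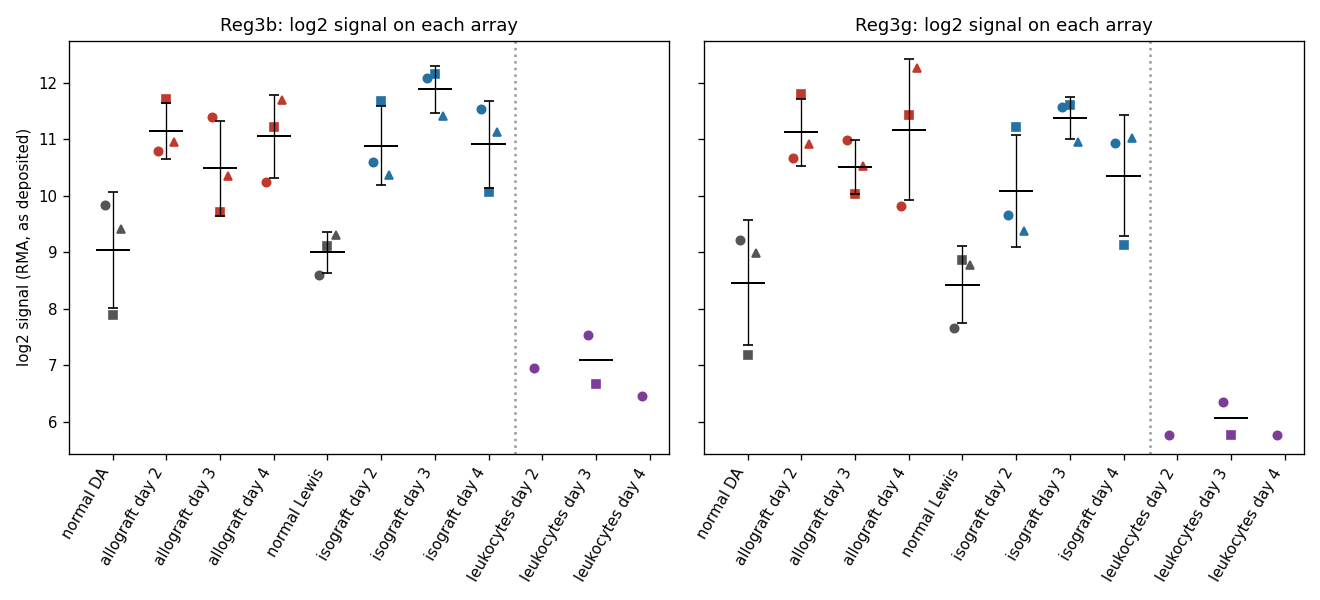
Log2 signal of Reg3b and Reg3g on each of the 28 arrays, by group. Circles, squares and triangles are replicates 1, 2 and 3, lines are group means and bars SD for groups of 3: graft arrays (red and blue) sit mostly above normal hearts (grey), and the 4 leukocyte arrays (purple), which may have been normalized apart from the others, lie below every endothelial array.

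Isografts were compared with normal Lewis hearts to ask what grafting did when donor and recipient were matched. In isografts both genes stood higher on every day and passed the test on day 3, by 7.39-fold for Reg3b and 7.73-fold for Reg3g. Reg3b had log2 signals of 10.60, 11.67 and 10.37 on day 2, 12.08, 12.16 and 11.40 on day 3 and 11.54, 10.06 and 11.13 on day 4. Reg3g had 9.66, 11.22 and 9.37 on day 2, 11.57, 11.61 and 10.95 on day 3 and 10.93, 9.12 and 11.01 on day 4. All 9 isograft arrays lay above all 3 normal Lewis arrays for both genes. The narrowest gap was that of Reg3g on day 4, where replicate 2 stood at 9.12 against the highest Lewis value of 8.85.

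On day 3 Reg3b rose by 2.88 log2 (SE 0.52, adjusted p = 0.00458 by limma) and Reg3g by 2.95 (SE 0.64, adjusted p = 0.0215). Both members were called there, against 0.896% of all probe sets called higher, 0.393% called lower and 1.29% called in either direction. Leaving out any 1 of the 3 day 3 arrays or Lewis replicate 1 moved Reg3g to adjusted p values of 0.0521 to 0.127, while Reg3b stayed called without each of those 6 arrays in turn (0.0114 to 0.0357). On day 2 the differences were 1.88 log2 for Reg3b (SE 0.52, 95% interval 0.81 to 2.96) and 1.66 for Reg3g (SE 0.64, 0.32 to 2.99). On day 4 they were 1.91 (0.84 to 2.99) and 1.93 (0.59 to 3.27). By limma 0 of the 2 genes passed on day 2 (adjusted p = 0.118 and 0.411) or day 4 (0.0683 and 0.178), where 0.583% and 1.33% of probe sets were called higher, 0.216% and 0.358% lower and 0.799% and 1.69% in either direction. Their unadjusted p-values were 0.0016 and 0.0178 on day 2 and 0.00141 and 0.00692 on day 4.

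Allografts were set beside normal DA hearts to see the mismatched donor hearts in the same way. The allograft level was used to choose the genes, so these differences are given without a test. Reg3b had log2 signals of 10.78, 11.70 and 10.95 on day 2, 11.39, 9.70 and 10.35 on day 3 and 10.24, 11.21 and 11.69 on day 4. Reg3g had 10.66, 11.79 and 10.91 on day 2, 10.99, 10.03 and 10.52 on day 3 and 9.81, 11.43 and 12.26 on day 4. For Reg3g all 9 allograft arrays lay above the 3 normal DA arrays, and for Reg3b 1 day 3 array (9.70) lay below the highest normal DA value (9.83).

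Reg3b differed from normal DA hearts by 2.11, 1.44 and 2.01 log2 on days 2, 3 and 4 (SE 0.52), and Reg3g by 2.66, 2.05 and 2.71 (SE 0.64). Without DA replicate 2, the low array, the day 3 difference of Reg3b was 0.86 log2 and that of Reg3g 1.42. The allograft change minus the isograft change of Reg3b was 0.22, -1.44 and 0.10 log2 on days 2, 3 and 4 (SE 0.73), and that of Reg3g was 1.01, -0.90 and 0.78 (SE 0.91). These differences between graft types were not tested.

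**Figure D2:**
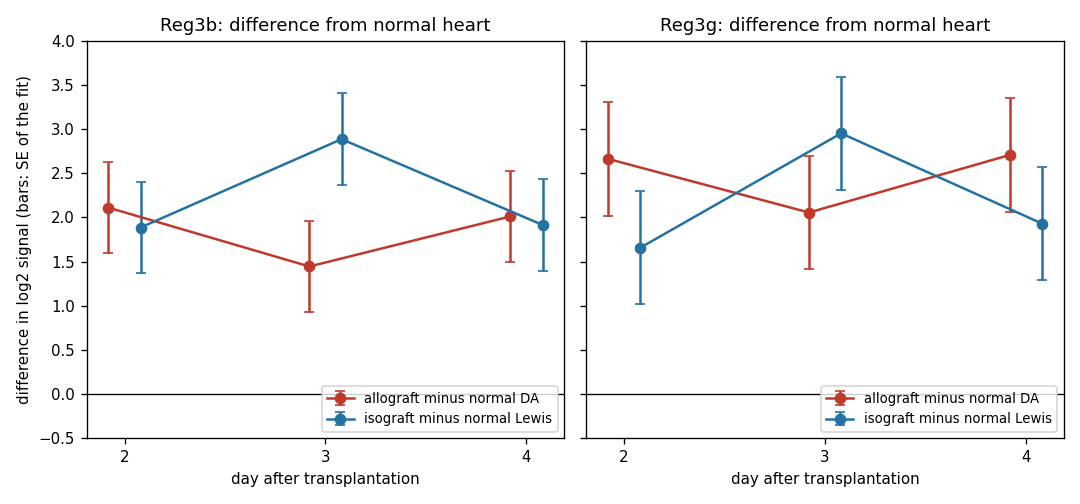
Difference in log2 signal between grafts and normal hearts of the donor strain on days 2, 3 and 4 after transplantation, with the SE of the fit as bars. Isografts (blue) were highest on day 3 at 2.88 for Reg3b and 2.95 for Reg3g, and allografts (red) were lowest on day 3 at 1.44 and 2.05.

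Day 4 was also compared with day 2, while the steps to and from day 3 were not tested. From day 2 to day 4 Reg3b differed by 0.03 log2 in isografts (95% interval -1.05 to 1.11) and by -0.10 in allografts (-1.18 to 0.98). Reg3g differed by 0.27 in isografts (-1.06 to 1.61) and by 0.04 in allografts (-1.29 to 1.38). The courses of the graft types, allograft minus isograft, differed by -0.13 log2 for Reg3b (-1.65 to 1.40) and by -0.23 for Reg3g (-2.12 to 1.66). By limma 0 of the 2 genes passed in these 3 comparisons (adjusted p at least 0.977, lowest unadjusted p = 0.674), where 0.0161%, 0.209% and 0.00322% of probe sets were called in either direction. The comparisons with allografts use the arrays whose level chose the genes. That choice rested on the level over leukocytes and not on the difference between days.

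In descending order of group means, Reg3b ran from isograft day 3 (11.88 ± 0.42 log2, SD, n = 3) through allograft day 2 (11.15 ± 0.49), allograft day 4 (11.05 ± 0.74), isograft day 4 (10.91 ± 0.77), isograft day 2 (10.88 ± 0.70) and allograft day 3 (10.48 ± 0.85) to normal DA (9.04 ± 1.03) and normal Lewis hearts (8.995 ± 0.37). Every neighbouring pair in that order overlapped in its arrays. Reg3g ran from isograft day 3 (11.38 ± 0.37) through allograft day 4 (11.17 ± 1.25), allograft day 2 (11.12 ± 0.60), allograft day 3 (10.51 ± 0.48), isograft day 4 (10.36 ± 1.07) and isograft day 2 (10.08 ± 0.99) to normal DA (8.46 ± 1.11) and normal Lewis hearts (8.43 ± 0.67). The only neighbours without overlap were isograft day 2 and normal DA hearts, which differ in strain.

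Leukocytes taken from the allografts held little signal of either gene. Reg3b had 6.95 log2 on day 2, 7.53 and 6.66 on day 3 and 6.46 on day 4. Reg3g had 5.76 on day 2, 6.35 and 5.76 on day 3 and 5.76 on day 4. Each endothelial array, normal hearts included, lay above each leukocyte array, with the lowest endothelial values at 7.88 for Reg3b and 7.19 for Reg3g. The mean over 9 allograft arrays exceeded that over the 4 leukocyte arrays by 3.99 log2 for Reg3b and by 5.03 for Reg3g, as deposited. This difference is the one that chose the genes. All 4 leukocyte signals of Reg3g lay below the median signal of the leukocyte arrays (6.83 to 6.87), and whether they lay above background is not known, so the differences compare signals and not amounts of RNA. The leukocyte arrays had a median 0.29 log2 higher and may have been normalized separately, and without that offset the differences were 4.28 and 5.32. Without both day 3 leukocyte arrays, which carried the most endothelial signal, they were 4.18 and 5.18. The leukocyte arrays of days 2 and 4 still had endothelial means of 8.44 and 8.68.

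The family genes Reg3a and Reg1a were also measured. Reg3a, a secreted lectin of the same kind, stood between 4.01 and 4.49 log2 on all endothelial arrays and did not pass in any graft comparison (differences 0.01 to 0.22). Reg1a, the family's founding member, is known from pancreas. It stood at 6.52 to 7.35 in allografts, above normal DA hearts at 6.12 to 6.36. Isografts at 6.22 to 7.49 overlapped normal Lewis hearts at 6.01 to 6.74. Its differences were 0.41, 0.49 and 0.07 log2 in isografts and 0.74, 0.58 and 0.64 in allografts on days 2, 3 and 4 (SE 0.27). None passed by limma (adjusted p at least 0.138). Unadjusted p-values were 0.142, 0.0798 and 0.799 in isografts and 0.0115, 0.0431 and 0.026 in allografts. Reg3b and Reg3g are close relatives, and how far each probe set also reads the other transcript, or the pseudogene, was not tested.

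Of the cytokines known to switch Reg genes on, or to act beside those that do, 10 of 13 listed genes were measured. In isografts 0, 1 and 1 of them rose on days 2, 3 and 4 and 0 fell, and in allografts 3, 1 and 2 rose and 1, 0 and 1 fell. The shares of all probe sets called higher were 2.02%, 0.876% and 4.23% in allografts on days 2, 3 and 4, those called lower 1.97%, 0.406% and 3.53%, and those in either direction 3.99%, 1.28% and 7.76%. Cytokine medians lay between 0.10 and 0.21 log2, against -0.05 to 0.01 over all probe sets. Oncostatin M (Osm), an interleukin-6 family cytokine, rose by 1.79 log2 in allografts on day 2 (adjusted p = 0.0291). It stood at 6.34 to 7.09 in normal hearts, at 6.59 to 9.32 in grafts and at 11.46 to 12.38 in leukocytes. Interleukin-6 (Il6) stood at 9.85 to 12.43 in normal hearts and 10.63 to 13.16 in grafts, with 1 Lewis array as high as most grafts. Its differences of 0.77 to 1.58 log2 did not pass (adjusted p at least 0.157). Il1b, an inflammatory cytokine, rose on 5 of the 6 occasions, by up to 4.96 log2 in allografts on day 2. Il1b signals were 5.29 to 6.90 in normal hearts, 7.32 to 11.045 in grafts and 13.44 to 14.14 in leukocytes. Il10, which signals through Stat3, rose by 1.79 and 2.46 log2 in allografts on days 2 and 4. Tnf fell there, with differences of -1.79 and -1.55 log2. Lif, of the interleukin-6 family, stayed between -0.15 and 0.10 log2 and did not pass.

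Of 13 listed receptor genes 11 were measured. In isografts 1, 1 and 0 rose and in allografts 1, 1 and 5 rose, and 0 fell, with list medians of 0.12 to 0.25 log2. For this list and those below, 0.583%, 0.896% and 1.33% of all probe sets were called higher in isografts on days 2, 3 and 4. The shares in allografts were 2.02%, 0.876% and 4.23%. The riser of the early days was Il6st, which encodes gp130, the signalling chain shared by the interleukin-6 family. It rose by 0.77 and 0.85 log2 in isografts on days 2 and 3 (adjusted p = 0.0129 and 0.00429), stood at 0.57 on day 4 (0.0628), and rose by 0.82, 0.82 and 1.10 log2 in allografts. Its normal arrays spanned 11.33 to 11.57 log2 and its graft arrays 11.71 to 12.96, without overlap, and leukocytes had 9.05 to 10.54. Il6r, the interleukin-6 receptor, rose by 2.24 log2 in allografts on day 4, as did Il17ra by 1.61 and Il10ra by 1.07. Extl3, reported as a receptor of Reg proteins, differed by -0.08 to 0.32 log2 and did not pass.

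Of the 13 Stat3 pathway genes all were measured. In isografts 1 rose on each day and in allografts 1, 0 and 2 rose, and 0 fell, with list medians of 0.06 to 0.33 log2. Myc, a growth regulator and Stat3 target, was the isograft riser at 1.96, 2.04 and 1.80 log2. Stat3 itself differed by 0.02 to 0.51 log2 and did not pass (adjusted p at least 0.0834). Socs3, the Stat3-induced brake of the pathway, differed by 0.73, 0.96 and 0.87 log2 in isografts (adjusted p = 0.288, 0.0595 and 0.0876) and by 0.25 to 0.42 in allografts.

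**Figure D3:**
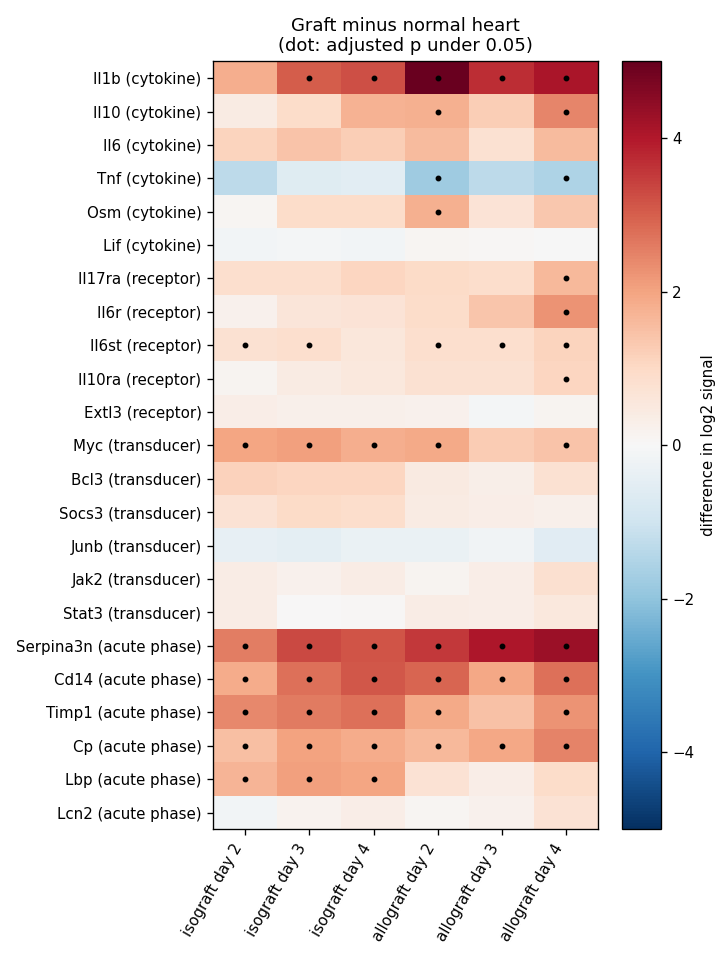
Difference in log2 signal between grafts and normal hearts of the donor strain for named cytokines, receptors, Stat3 pathway genes and acute phase genes. Red is higher and blue lower in grafts and dots mark an adjusted p under 0.05: Il1b, Il6st, Myc, Serpina3n, Cd14, Timp1 and Cp carry dots in both graft types, and Stat3, Socs3 and Lcn2 carry none.

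Among 18 acute phase genes, which inflammation switches on in liver and other tissues, 5 rose on each day in isografts and 4, 3 and 5 in allografts, and 0 fell, with list medians of 0.14 to 0.28 log2. Serpina3n, a protease inhibitor, rose by 2.56, 3.31 and 3.15 log2 in isografts and by 3.54, 4.05 and 4.28 in allografts. It stood at 4.31 to 5.05 in normal hearts, 7.15 to 9.68 in grafts and 5.16 to 5.70 in leukocytes. The copper carrier ceruloplasmin (Cp) rose by 1.49, 2.01 and 1.86 log2 in isografts and by 1.61, 1.95 and 2.50 in allografts. Of 12 secreted antimicrobial genes 10 were measured, of which 1 rose on each day in isografts and 4, 1 and 2 in allografts, with list medians of 0.01 to 0.45 log2. The isograft riser was Lyz2, the lysozyme of phagocytes. Lcn2, an iron-withholding antimicrobial protein, followed the strain of the heart: it stood at 6.32 to 9.42 on arrays of DA hearts and at 9.998 to 11.03 on those of Lewis hearts. Normal DA hearts lay 3.18 log2 below normal Lewis hearts in Lcn2 (adjusted p = 0.00268), and no graft difference of Lcn2 passed.

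Transcripts of other cells moved in the same arrays. Of all probe sets 0.583%, 0.896% and 1.33% were called higher in isografts on days 2, 3 and 4, and 0.216%, 0.393% and 0.358% lower. The shares in allografts were 2.02%, 0.876% and 4.23% higher and 1.97%, 0.406% and 3.53% lower. In isografts 0, 3 and 4 and in allografts 10, 7 and 10 of 12 pan-leukocyte genes rose on days 2, 3 and 4. Their means were 6.76 to 7.19 log2 in normal hearts, 7.36 to 8.48 in isografts and 8.20 to 9.06 in allografts. The CD45 gene Ptprc differed by 1.33, 2.02 and 2.26 log2 in isografts, passing on days 3 and 4, and rose in allografts by 2.82, 2.93 and 3.47. Of 10 macrophage genes 4, 7 and 9 rose in isografts and 9, 8 and 10 in allografts, with means of 5.98 to 6.46 in normal hearts, 7.47 to 9.61 in isografts and 8.32 to 10.04 in allografts. Of 11 T cell genes 1, 1 and 3 rose in isografts and 3, 5 and 11 in allografts. Neutrophil genes were 7 of 12 measured, and 5 rose in allografts on day 2, with list means of 5.59 to 7.75 there against 4.81 to 4.97 in normal hearts. Of 11 fibroblast genes 4 rose on day 4 in isografts and 1, 0 and 4 rose in allografts, with means of 7.14 to 8.04 in normal hearts and 7.68 to 11.12 in grafts. Of 14 cardiomyocyte genes 4, 8 and 6 fell in isografts and 3, 0 and 3 in allografts. Cardiomyocyte means were 7.31 to 8.12 in normal Lewis hearts, 6.12 to 6.83 in normal DA hearts and 5.78 to 6.89 in grafts. Of 13 endothelial genes 0 fell in isografts and 1, 0 and 2 in allografts. Of 10 mural cell genes 0 changed in isografts and 0, 0 and 3 rose in allografts, and of 8 Schwann cell genes 1 rose on each day in isografts and 1, 0 and 3 in allografts. Of 9 measured genes of dedifferentiating heart muscle 0 rose in isografts and 1, 1 and 2 rose in allografts, with means of 6.60 to 7.35 log2 on all endothelial arrays. Runx1 was called on days 2 and 4 and Myh7 on day 3. In leukocytes this list averaged 7.73 to 8.49 as deposited, above every endothelial array. A list mean does not show which cells held Runx1 or Myh7, and that was not tested.

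Markers of the tissues in which Reg3 genes are best known gave low mean signals. The 12 pancreatic acinar genes averaged 5.02 to 5.34 log2 over the endothelial arrays, and 0 passed by limma in any graft comparison, with 0 to 2 of them per comparison at an unadjusted p under 0.05. The 10 intestinal genes averaged 5.05 to 5.36, and only Krt20 rose, by 0.43 log2 in allografts on day 2. The 11 genes of neck glands and squamous epithelium averaged 4.84 to 5.32, with 0 passing by limma and 0 to 2 per comparison at an unadjusted p under 0.05, and the 9 mesothelial genes averaged 5.17 to 5.56, with Wt1 the single one to fall. Wt1 did not share the low level of the other mesothelial genes and stood at 9.76 to 11.24 log2 on the endothelial arrays. Median signals of the endothelial arrays were 6.502 to 6.59. Some pancreatic and intestinal genes reached above these medians, among them Ctrl (5.74 to 7.42), Spink1 (5.74 to 7.32) and Tff3 (6.48 to 7.29). Arrays give no signal of 0, and the values hold no detection calls. In bulk samples fewer cells of a type and less RNA per cell cannot be told apart, and the part of leukocyte, fibroblast or muscle transcripts in the levels of Reg3b and Reg3g was not tested.

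**Figure D4:**
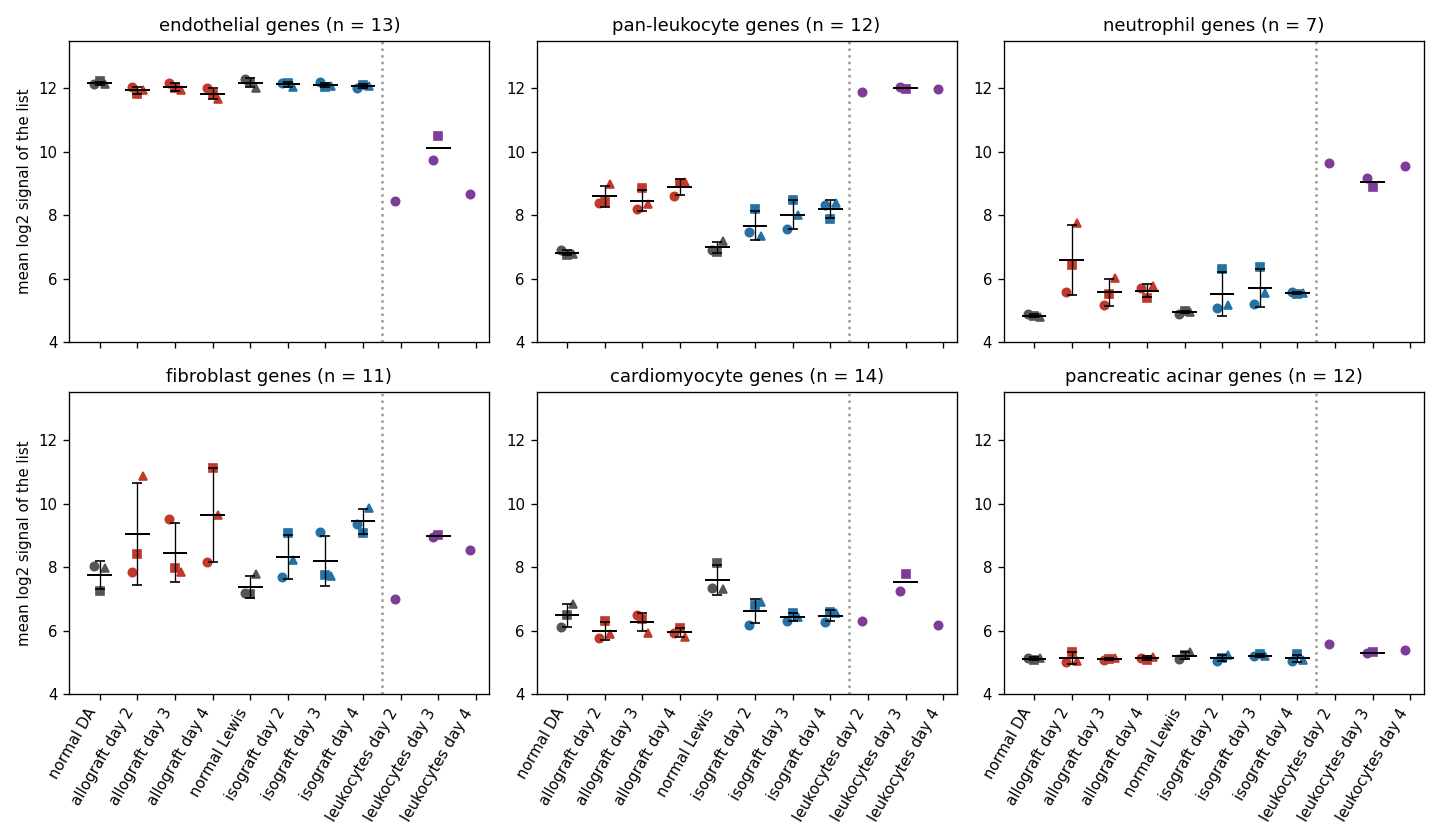
Mean log2 signal of 6 cell type lists on each array, by group, with group means as lines and SD as bars for groups of 3. Endothelial means stay between 11.66 and 12.28 on endothelial arrays, and pancreatic acinar means between 5.02 and 5.34. Group means of pan-leukocyte and fibroblast genes are higher in grafts, while single graft arrays overlap normal hearts in fibroblast genes.

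The gene with the pattern most like Reg3b over the 24 endothelial arrays, among 14216 others, was Reg3g, with a Pearson correlation of 0.952, and the reverse held for Reg3g. After subtraction of group means the correlation of the pair was 0.941, so their arrays deviated together within groups. Next to Reg3b came Jak3, a kinase of cytokine receptors (0.864), Adamts7, a matrix protease (0.863), P2ry6, a receptor for extracellular nucleotides (0.863), Inhba, an activin subunit (0.862), and Fblim1, an adaptor of cell adhesion (0.857). Next to Reg3g came Olr1, the oxidized lipoprotein receptor of endothelium and macrophages (0.891), Jak3 (0.862), Vcan, a matrix proteoglycan (0.858), the lactate exporter Slc16a3 (0.857) and P2ry6 (0.856). These values describe arrays that share groups and normalization. By Spearman correlation or after subtraction of group means, 2 to 3 of each set of 6 remained, always with the other member of the pair among them. Jak3 did not remain in any. As deposited, 6 of these 8 genes had higher group means in leukocytes than in any graft group, unlike Reg3b and Reg3g: Jak3 (8.10 to 8.74), Adamts7 (8.34 to 8.52), P2ry6 (10.82 to 11.14), Olr1 (8.38 to 9.54), Vcan (9.66 to 11.55) and Slc16a3 (10.52 to 11.10). The other 2 were lower in leukocytes, Inhba at 5.80 to 6.31 against 8.71 to 9.56 in grafts and Fblim1 at 7.40 to 7.76 against 8.46 to 9.06. The higher median of the leukocyte arrays, by 0.29 log2, was not removed here. For Adamts7 and Olr1 the gap was smaller than that offset, with highest graft means of 8.27 and 8.23.

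The balance between the pair within arrays was also set side by side by graft type, without a test, because the allograft levels were used to choose the genes and the comparison was picked after these values had been seen. Reg3g minus Reg3b was -0.12, 0.09 and -0.04 log2 in allografts on day 2, -0.40, 0.33 and 0.17 on day 3 and -0.43, 0.22 and 0.57 on day 4. In isografts it was -0.94, -0.46 and -0.997 on day 2, -0.51, -0.55 and -0.46 on day 3 and -0.61, -0.94 and -0.12 on day 4. The allograft mean lay 0.66 log2 above the isograft mean, averaged over days (n = 9 against 9), by 0.77, 0.54 and 0.67 on days 2, 3 and 4, and the ranges of the graft types overlapped. Leaving out single graft arrays gave 0.59 to 0.75 log2. Normal DA hearts (-0.58 ± 0.14, SD, n = 3) and normal Lewis hearts (-0.57 ± 0.35) differed by less than their spread. Graft type and donor strain cannot be told apart among grafts. Pan-leukocyte means ranged from 8.20 to 9.06 log2 in allografts and from 7.36 to 8.48 in isografts, and their part in the difference was not tested.

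**Figure D5:**
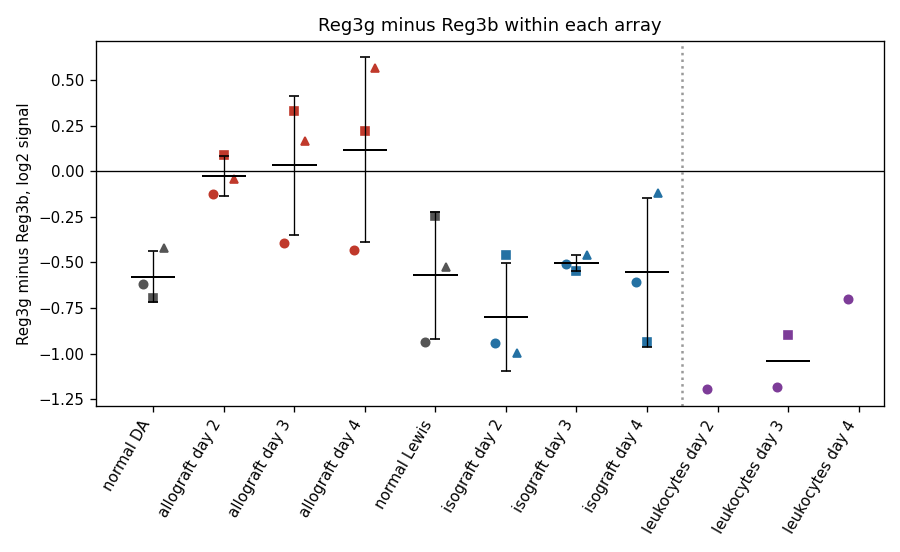
Reg3g minus Reg3b in log2 signal on each of the 28 arrays, by group, with group means as lines and SD as bars for groups of 3. The 0 line has no meaning of its own, since the signals come from different probe sets: allograft arrays (red) range from -0.43 to 0.57 and isograft arrays (blue) from -0.997 to -0.12.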

How the data were processed

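The 28 Affymetrix arrays are deposited as log2 signals per probe set, made by the authors with RMA in the affy package, per the submitters' processing notes; versions are not given in the sources used here. The values were used as deposited, and 0 columns were left over. Median signals were 6.502 to 6.59 on the 24 endothelial arrays and 6.83 to 6.87 on the 4 leukocyte arrays, so both sets may have been normalized apart. Array signals have no counting depth, and the number of arrays limits the precision.

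Of 31099 probe sets 57 controls were dropped and 31042 were fitted, without a filter on dim ones. Of these, 20826 were listed with 1 gene, 436 with several and 9780 with none, and 20758 took their symbol from RefSeq through an Entrez identifier. limma 3.58.1 (R 4.3.3) modelled the 24 arrays of endothelial cells by their 8 groups (residual degrees of freedom 16, prior 4.02). P-values were adjusted over all probe sets after Benjamini and Hochberg, and an adjusted p under 0.05 was a call. For genes other than Reg3b and Reg3g the probe set with the highest mean was used. The procedure was tested on simulated data. Promoters were searched and aligned with Biopython 1.88.

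The 20 gene lists (244 entries, 213 measured) cover the Reg family, cytokines, receptors, Stat3 pathway genes, acute phase and antimicrobial genes, and 14 cell types. Named were up to 5 genes per list with the largest mean graft difference, a fixed set of pathway genes, and the 6 genes most like each member by Pearson correlation. The members and lists were chosen with earlier results of these data known. Replicate numbers recur across groups. Same-numbered arrays deviated together in all 3 pairs (r over 0.1) for 5 of 28 pairs of groups, among them isograft day 2 with normal Lewis hearts (r = 0.249, 0.307 and 0.483), allograft day 3 with isograft day 3 (0.345, 0.184 and 0.188) and allograft day 2 with isograft day 4 (0.513, 0.58 and 0.567). Alternatives covered the replicate block, 2 normalizations, the features and arrays fitted, a dim filter at 6 log2, the variance model, and leaving out each array.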

Additional observations from a re-analysis of the deposited data

How the results depend on the processing

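With the replicate number as a block the differences were the same and no call of Reg3b or Reg3g changed. On day 3 of isografts the block gave adjusted p = 0.0076 for Reg3b and 0.0281 for Reg3g, and on day 2, where same-numbered arrays deviated together, 0.136 and 0.388. Reg3b on day 4 of isografts (1.91 log2) passed with 1 probe set per gene (adjusted p = 0.0457), without dim probe sets (0.0497) and with only the groups compared (0.0301). Differences near 0 turned sign under a second quantile normalization: DA minus Lewis became -0.0478 for Reg3b and -0.0643 for Reg3g, day 4 minus day 2 became -0.0012 for Reg3b in isografts and -0.0005 for Reg3g in allografts. Leaving out single arrays gave 2.56 to 3.17 log2 for Reg3g on day 3 of isografts (adjusted p = 0.0458 to 0.127) and 1.60 to 2.34 for Reg3b on day 4 (0.0364 to 0.275, passing without day 4 replicate 2). It gave ranges on both sides of 0 for the strain difference (-0.35 to 0.62 for Reg3b, -0.35 to 0.67 for Reg3g), for day 4 minus day 2 in isografts (-0.29 to 0.46 and -0.0821 to 0.89) and allografts (-0.42 to 0.30 and -0.50 to 0.72), and for their difference (-0.56 to 0.27 and -0.85 to 0.45). With only the groups compared, called probe sets numbered 150 instead of 248 in isografts on day 2, 237 instead of 359 between strains, 1 instead of 5 between days in isografts, 0 instead of 65 in allografts and 0 instead of 1 for the difference of courses. They numbered 594 instead of 1240 and 708 instead of 2409 in allografts on days 2 and 4. Between strains 144 were called with 1 probe set per gene and 216 with only probe sets of 1 gene, which test fewer features. With the replicate block 3 were called between days in isografts. Leaving out single arrays gave 103 to 197, 191 to 327 and 256 to 442 called in isografts on days 2, 3 and 4, and 557 to 1287, 201 to 408 and 1267 to 3780 in allografts. It gave 224 to 377 between strains, 1 to 13 and 11 to 664 between days in isografts and allografts, and 0 to 33 for the difference of courses. Where a cause is not named it was not tested.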

Other observations

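Among the leukocyte arrays the highest Reg3b signal (7.53 log2, day 3 replicate 1) was not on the array with the most endothelial signal: that array had an endothelial mean of 9.74, and day 3 replicate 2, at 10.51, had 6.66 in Reg3b.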
